A study of Homo sapiens with 18 samples.

Results

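The genes described here are 10 widely used transcriptional readouts of ERK signalling: ETV4, ETV5, FOSL1, DUSP4, DUSP6, SPRY2, SPRY4, SPRED1, SPRED2 and PHLDA1. They were chosen by name, and they are 10 of the 58051 genes in the table. All 10 passed the filter on low counts in both cell lines. In uninduced cells 9 of the 10 differed between the lines, beside 75.9% of all genes tested. FOSL1 was 2.79-fold higher and SPRY4 1.86-fold lower in SKMEL30 than in SKMEL2. After induction of PPP2R3B, edgeR called 0 of the 10 in either line at either time, with 0 to 2 at an unadjusted p under 0.05. Over all genes it called 0.0124% to 0.293%, and 3.37% to 9.14% had an unadjusted p under 0.05. DESeq2 called FOSL1 alone, in SKMEL30 at 18 hours, and edgeR without a filter on low counts called FOSL1 at 18 hours in both lines. Without that filter edgeR also called many more of all genes on induction.

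ERK is the last kinase of the RAS, RAF and MEK cascade, and growth factor receptors or mutated RAS proteins switch it on. Active ERK raises transcription of growth genes and, with them, of genes that damp the cascade, so the level of the second kind is a common gauge of pathway output. ETV4, ETV5 and FOSL1 encode transcription factors, DUSP4 and DUSP6 encode phosphatases that inactivate ERK, Sprouty (SPRY) and SPRED proteins restrain RAS and RAF, and PHLDA1 is a growth factor responsive gene that encodes a protein with a pleckstrin homology-like domain.

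SKMEL2 and SKMEL30 are human melanoma cell lines that both carry mutated NRAS. Each was given a stable tet-ON pTRIPZ-PPP2R3B lentiviral vector, from which doxycycline induces a Myc-tagged form of PPP2R3B. PPP2R3B encodes PR70, a regulatory subunit of protein phosphatase PP2A. RNA of 3 libraries each was sequenced from untreated cells, from cells with doxycycline for 6 hours and from cells with doxycycline for 18 hours, in both lines, which gave 18 libraries. The labels give 18 hours for the later time, where the text of the study gives 16 hours. Uninduced cells carried the vector too, and no library came from cells given doxycycline without the PPP2R3B insert, so an effect of doxycycline and an effect of PPP2R3B cannot be told apart. Each line stands for itself alone, and nothing in the labels says that the 3 libraries of a group came from separate cultures, so that p-values measure the spread between these libraries.

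Totals ran from 13402645 to 22383470 counts per library, and the 10 genes had 532 to 13552 counts each in every library. PPP2R3B itself rose by 4.38 and 4.52 on the log2 scale in SKMEL2 at 6 and 18 hours, and by 4.69 and 4.88 in SKMEL30. All 7 melanocyte markers were above 0 in both lines, and they summed to 3808 to 4558 CPM in SKMEL2 and 8674 to 9198 CPM in SKMEL30 (CPM, counts scaled to a common library total). Fibroblast, leukocyte and endothelial marker sums were at most 33.6, 19.6 and 2.97 CPM. The endothelial sum covers VWF and CDH5 alone, as PECAM1 was not matched to a gene ID, and CDH5 was at 0 in SKMEL2. Keratinocyte markers (KRT5, KRT14, DSG3, with KRT1 at 0) summed to between 0.134 and 16.4 CPM in 17 libraries, and to 68.3 CPM in SKMEL30 6 hours replicate 3. The share of counts from mitochondrially encoded genes was 6.42% to 7.29% in 16 libraries, 9.50% in SKMEL2 uninduced replicate 3 and 8.77% in SKMEL2 6 hours replicate 2. The coefficient of variation of the 10 genes within a group had a median of 6.54% in SKMEL2 and 2.36% in SKMEL30, so that the SKMEL30 values are the more precise.

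The plot of CPM by library shows all 10 genes in the 6 groups. The totals behind these CPM were scaled with TMM factors, which correct for differences in RNA composition. In such bulk samples fewer expressing cells and less RNA per cell cannot be told apart.

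**Figure D1:**
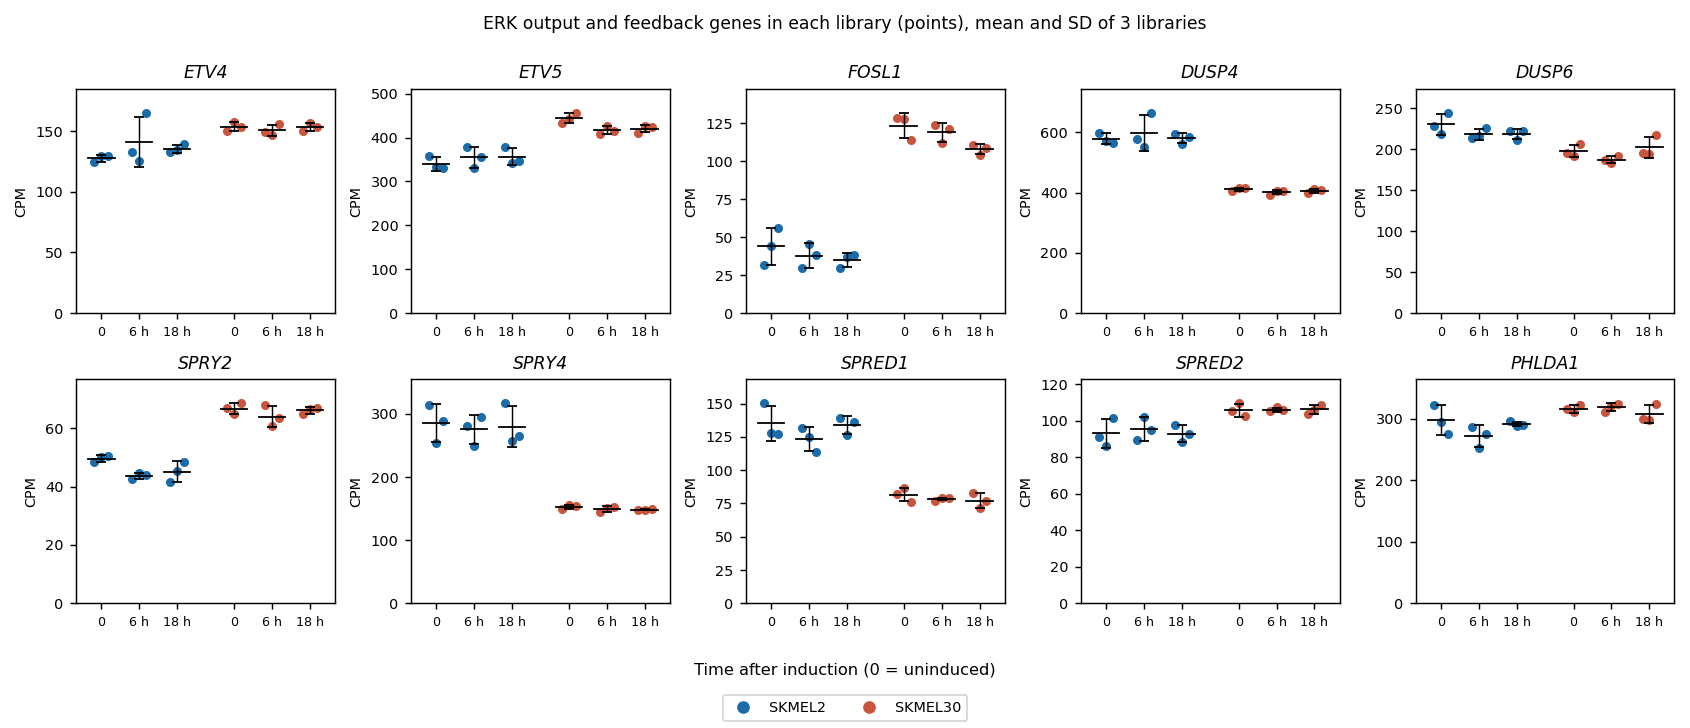
CPM (vertical axis, from 0) of the 10 genes in each library (points), with the mean and SD of the 3 libraries of a group, by time after induction (horizontal axis, 0 for uninduced cells). FOSL1 lies between 104 and 128 CPM in the SKMEL30 libraries and between 29.5 and 56.2 CPM in the SKMEL2 libraries, and SPRY4 lies lower in SKMEL30, at 145 to 156 CPM against 250 to 317 CPM.

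The transcription factor genes were compared first between the uninduced lines. FOSL1, which encodes the AP-1 subunit FRA1 (GRCh38.p14 chromosome 11, 65892049 to 65900545), was at 31.7, 43.9 and 56.2 CPM in the uninduced SKMEL2 libraries. In uninduced SKMEL30 it was at 128, 128 and 114 CPM. Every SKMEL30 library lay far above every SKMEL2 library. The log2 difference was 1.48 (SE 0.15, edgeR quasi-likelihood adjusted p = 2.05e-08). It was 1.65 among the 6 hour libraries and 1.63 among the 18 hour libraries. FOSL1 was also the most variable of the 10 genes in SKMEL2, with a coefficient of variation of 27.9% in uninduced cells. Its highest values at 0 and 6 hours came from the libraries with the highest mitochondrial shares, replicate 3 and replicate 2. Without these libraries the difference between the uninduced lines was 1.70 (adjusted p = 7.35e-10).

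ETV5, an ETS family factor (chromosome 3, 186046314 to 186109089), was at 359, 332 and 330 CPM in uninduced SKMEL2 and at 434, 442 and 456 CPM in uninduced SKMEL30. The groups did not overlap, and the log2 difference was 0.38 (SE 0.05, adjusted p = 1.26e-06). ETV4, its close relative (chromosome 17, 43527846 to 43546340), was at 125, 129 and 130 CPM in uninduced SKMEL2. In uninduced SKMEL30 it was at 151, 158 and 153 CPM, again without overlap, with a log2 difference of 0.27 (SE 0.07, adjusted p = 0.00155). All 3 transcription factor genes were thus higher in SKMEL30, FOSL1 by the largest margin of the 10 genes. For ETV4 the difference was 0.10 among the 6 hour libraries and missed the threshold there (adjusted p = 0.198), with SKMEL2 6 hours replicate 3 at 165 CPM above all SKMEL30 libraries.

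The phosphatase genes lay the other way. DUSP4, which encodes a nuclear ERK phosphatase, was at 600, 572 and 565 CPM in uninduced SKMEL2 and at 406, 415 and 415 CPM in uninduced SKMEL30. The log2 difference was -0.49 (SE 0.05, adjusted p = 6.36e-08), with every SKMEL30 library below every SKMEL2 library. DUSP6, which encodes a cytoplasmic ERK phosphatase, was at 229, 218 and 244 CPM in uninduced SKMEL2 and at 196, 191 and 207 CPM in uninduced SKMEL30. These groups were separate too, and the log2 difference was -0.22 (SE 0.05, adjusted p = 0.000669). Among the 18 hour libraries the DUSP6 groups overlapped and the difference was -0.11 (adjusted p = 0.0594).

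The sequence around the DUSP6 start is shown because it holds a pair of octamers of the kind bound by Capicua (CIC), a repressor that ERK signalling relieves. The letters searched were TGAATGAA, TGAATGGA, TCAATGAA and TCAATGGA on both strands, and capitals mark the matches, which read TCCATTGA, the reverse complement of TCAATGGA. The stretch runs from 60 bases before to 12 bases from the annotated start on the minus strand, at chr12:89352490-89352561 (RefSeq, GRCh38.p14), and the matches begin at -24 and +2 counted from the start. The second stretch lies at the downstream start of SPRED2, at chr2:65366767-65366838 on the minus strand, inside the annotated gene. It is shown for an AP-1 heptamer (TGANTCA, the motif bound by FOSL1 with its partners) at -6.
DUSP6: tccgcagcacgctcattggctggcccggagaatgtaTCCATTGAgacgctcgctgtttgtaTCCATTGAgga
SPRED2: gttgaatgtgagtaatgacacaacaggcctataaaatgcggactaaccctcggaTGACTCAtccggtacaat
Promoter windows of 300 bases were found for 6 of the 10 genes (DUSP6, SPRY2, SPRY4, SPRED1, SPRED2 and PHLDA1) in 9 windows. CIC letters stood in the DUSP6 window alone and in 3.76% of 35097 windows of all genes. AP-1 letters stood at the downstream SPRED2 start alone, at -6 and +35, and in 7.71% of all windows. The ETS octamer CCGGAAGT and the CRE octamer TGACGTCA stood in none of the 9, and in 4.14% and 1.85% of all windows. No match overlapped another, and a match is a description of the letters, not of binding.

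Of the Sprouty genes, SPRY4 was the lower and SPRY2 the higher in SKMEL30. SPRY4 (chromosome 5, 142310430 to 142325021) was at 313, 254 and 289 CPM in uninduced SKMEL2 and at 150, 156 and 154 CPM in uninduced SKMEL30. Every SKMEL2 library lay above every SKMEL30 library, and the log2 difference was -0.90 (SE 0.08, adjusted p = 2.33e-09). SPRY2 (chromosome 13, 80335976 to 80341126) was at 48.29, 49.99 and 50.39 CPM in uninduced SKMEL2. In uninduced SKMEL30 it was at 66.80, 64.996 and 68.51 CPM, which gave a log2 difference of 0.43 (SE 0.06, adjusted p = 9.26e-07). Both proteins restrain receptor signalling to RAS, and their genes thus differed in opposite directions between the lines.

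The SPRED genes were split in the same way. SPRED1 (chromosome 15, 38252836 to 38357249) was at 150, 128 and 127 CPM in uninduced SKMEL2 and at 82.0, 86.3 and 76.4 CPM in uninduced SKMEL30, a log2 difference of -0.73 (SE 0.07, adjusted p = 1.80e-08). SPRED2 (chromosome 2, 65307175 to 65432599) was at 91.3, 86.2 and 102 CPM in uninduced SKMEL2. In uninduced SKMEL30 it was at 105, 109 and 102 CPM. The highest SKMEL2 library lay only just below the lowest SKMEL30 library, and the log2 difference was 0.18 (SE 0.06, adjusted p = 0.00938). PHLDA1 (chromosome 12, 76025447 to 76031776) was at 323, 295 and 275 CPM in uninduced SKMEL2 and at 315, 310 and 323 CPM in uninduced SKMEL30. Its groups overlapped, and the difference of 0.09 (95% interval -0.03 to 0.20) missed the threshold (adjusted p = 0.158). Without SKMEL2 uninduced replicate 1 the PHLDA1 difference was 0.16 and passed (adjusted p = 0.0146).

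Together, 9 of the 10 genes were called between the uninduced lines at an adjusted p under 0.05, with 5 higher (FOSL1, SPRY2, ETV5, ETV4 and SPRED2) and 4 lower (SPRY4, SPRED1, DUSP4 and DUSP6) in SKMEL30. Of all 17133 genes tested, 75.9% were called in this comparison. Only FOSL1 passed with a difference over 2-fold, where 34.7% of all genes did. The median absolute log2 difference was 0.41 over the 10 genes and 0.67 over all genes. Groups did not overlap for 9 of the 10 genes and for 78.3% of all genes. In the 6 hour libraries 9 of the 10 genes were called (75.4% of all genes) and 9 did not overlap (74.5%). In the 18 hour libraries 8 were called (75.1%) and 9 did not overlap (80.2%). All 10 kept their sign at the 3 times, and 7 were called at each of them. The shares of all genes that did so were not computed, so whether these counts set the 10 genes apart was not tested. Averaged over the 10 genes, log2 CPM was 7.31 to 7.39 in the uninduced SKMEL2 libraries and 7.40 to 7.42 in the uninduced SKMEL30 libraries. The mean levels of the lines thus lay close together, while single genes lay apart in both directions.

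**Figure D2:**
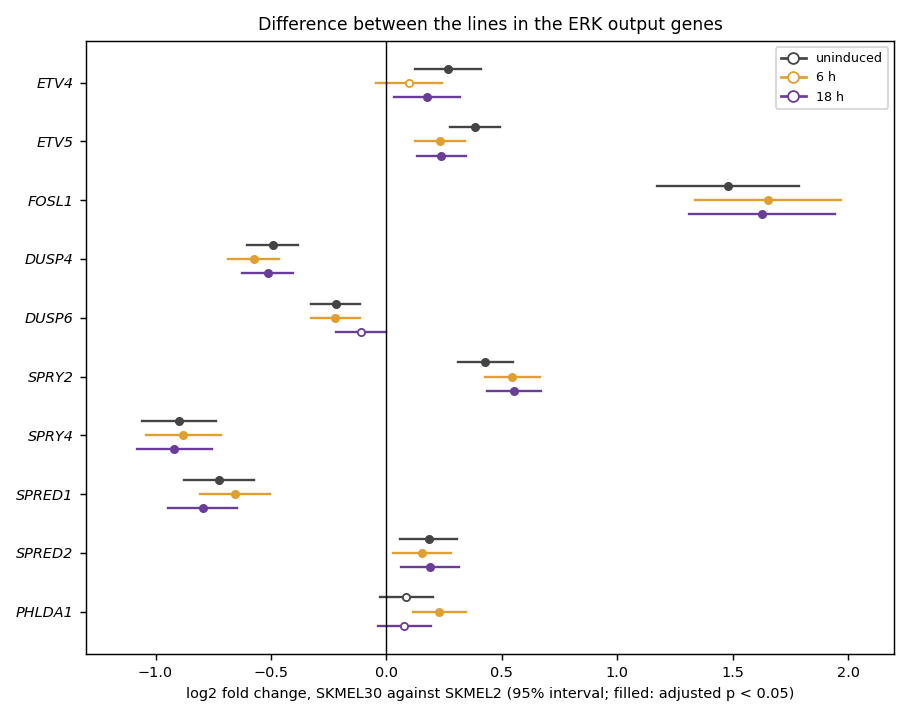
Log2 fold change of each gene in SKMEL30 against SKMEL2 (horizontal axis, with 95% intervals) in uninduced, 6 hour and 18 hour libraries, with filled points at an adjusted p under 0.05. FOSL1 lies at 1.48 to 1.65 and SPRY4 at -0.88 to -0.92, and every gene stays on the same side of 0 at the 3 times.

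Levels of different genes were compared per length, as CPM per kb of the canonical transcript. In uninduced SKMEL2, DUSP4 was highest at 104 ± 3.26 CPM per kb (SD, n = 3). It was followed by ETV5 at 83.4 ± 3.90, and both were separate from the gene below them. DUSP6, SPRY4, ETV4 and PHLDA1 came next at 63.5 to 50.4 CPM per kb, and each overlapped its neighbour. FOSL1, SPRY2, SPRED2 and SPRED1 formed the low end at 25.8 to 18.6 CPM per kb, again with overlapping neighbours. In uninduced SKMEL30, ETV5 was highest at 109 ± 2.69 CPM per kb. DUSP4, FOSL1 and ETV4 followed at 74.2, 72.4 and 65.9 CPM per kb, each overlapping its neighbour, so that FOSL1 stood among the upper genes rather than at the low end. SPRED1 was lowest in both lines, at 11.2 ± 0.69 CPM per kb in SKMEL30, where it was separate from SPRED2 at 23.4 ± 0.79.

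**Figure D3:**
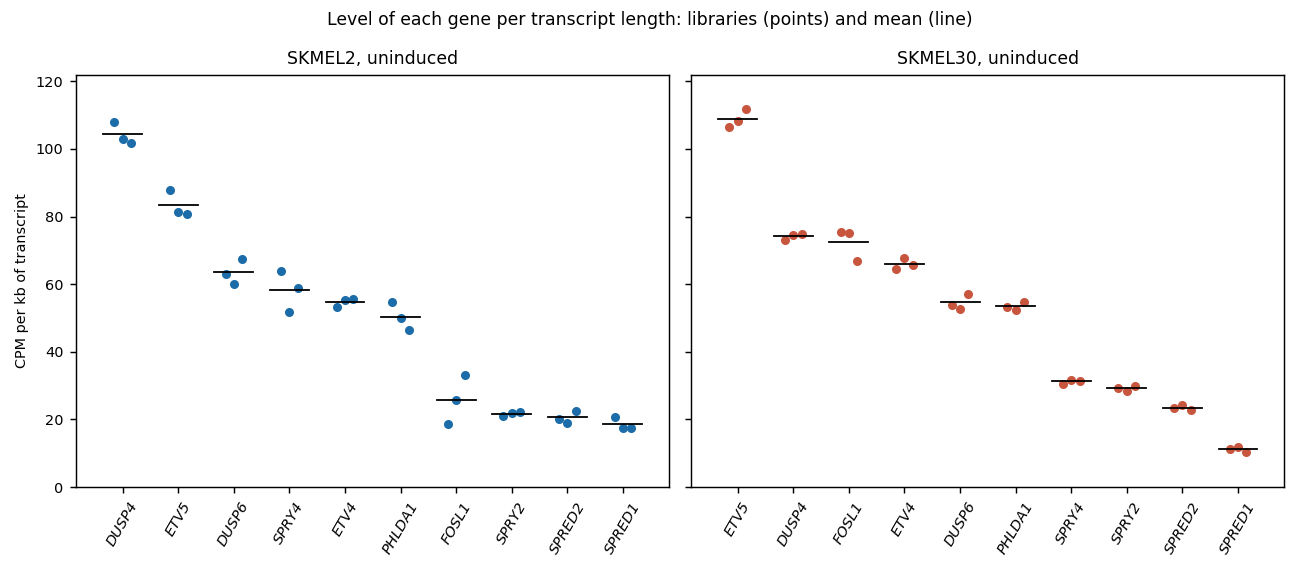
CPM per kb of transcript (vertical axis, from 0) of the 10 genes in uninduced SKMEL2 (left) and SKMEL30 (right), ordered by their mean (line), with the 3 libraries as points. DUSP4 leads in SKMEL2 at 104 CPM per kb and ETV5 leads in SKMEL30 at 109 CPM per kb, and FOSL1 moves from 25.8 to 72.4 CPM per kb.

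The second question was whether raising PPP2R3B altered this output. In SKMEL2 at 6 hours 0 of the 10 genes were called by edgeR (0.0124% of 16120 genes tested were). One gene, SPRY2, had an unadjusted p under 0.05, and DESeq2 also called 0. SPRY2 was at 42.7, 44.7 and 43.9 CPM at 6 hours, all below the uninduced libraries, with a log2 difference of -0.18 (adjusted p = 0.989). Groups failed to overlap for SPRY2 alone among the 10 genes, where 6.8% of all genes did not overlap. At 18 hours SPRY2 was at 41.5, 45.3 and 48.6 CPM, and the highest of these reached into the uninduced range.

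In SKMEL2 at 18 hours 0 of the 10 genes were called by edgeR (0.0124% of all genes), 0 had an unadjusted p under 0.05, and DESeq2 called 0. ETV4 alone did not overlap, at 133, 134 and 140 CPM above the uninduced 125 to 130 CPM, where 14.3% of all genes did not overlap. Its log2 difference was 0.08 (SE 0.09, adjusted p = 0.987). FOSL1 was at 29.9, 36.6 and 38.4 CPM at 18 hours and at 29.5, 45.5 and 38.3 CPM at 6 hours, within or below the uninduced range of 31.7 to 56.2 CPM. Its log2 difference was -0.22 at 6 hours (SE 0.19) and -0.34 at 18 hours (SE 0.19, adjusted p = 0.987), with overlapping groups. Without the pair of libraries with the highest mitochondrial share these differences were -0.16 and -0.13, and leaving out any 1 library moved the 6 hour value between -0.40 and -0.0044 and the 18 hour value between -0.52 and -0.12. Both were nearest to 0 without SKMEL2 uninduced replicate 3 and furthest from 0 without uninduced replicate 1. The part of RNA quality in the FOSL1 values was not tested.

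The remaining SKMEL2 values were small on the log2 scale. ETV5 differed by 0.07 at both times and DUSP6 by -0.07 and -0.08. DUSP4 differed by 0.05 and 0.0016, SPRY4 by -0.05 and -0.03, SPRED1 by -0.13 and -0.01, SPRED2 by 0.04 and -0.0033, and PHLDA1 by -0.13 and -0.03. The 95% intervals of 9 of the 10 genes lay within 0.5 of 0 on the log2 scale at both times, the exception being FOSL1, whose lower bounds were -0.63 and -0.75. A fall of FOSL1 of that size is thus not excluded at this precision.

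In SKMEL30, the more precise line, 0 of the 10 genes were called by edgeR at 6 hours (0.206% of 15026 genes tested were). One gene, ETV5, had an unadjusted p under 0.05, and DESeq2 called 0. ETV5 was at 408, 427 and 416 CPM at 6 hours and at 412, 427 and 423 CPM at 18 hours, below all 3 uninduced libraries at 434 to 456 CPM. The log2 difference was -0.09 at 6 hours (SE 0.03, adjusted p = 0.463) and -0.08 at 18 hours (SE 0.03, adjusted p = 0.382). It was the 1 gene of the 10 without overlap at 6 hours, where 11.3% of all genes had none. The range of the differences over the 10 genes at 6 hours was -0.09 for ETV5 to 0.01 for PHLDA1. Without replicate 3 of the 6 hour group, the library with the highest keratinocyte marker sum, 0 of the 10 genes were called as well.

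At 18 hours in SKMEL30, 0 of the 10 genes were called by edgeR (0.293% of all genes), FOSL1 and ETV5 had an unadjusted p under 0.05, and DESeq2 called FOSL1 alone (adjusted p = 0.0463). FOSL1 was at 110, 104 and 109 CPM at 18 hours and at 124, 112 and 121 CPM at 6 hours. The 18 hour libraries lay below all uninduced libraries at 114 to 128 CPM, while the 6 hour libraries overlapped them. The log2 difference was -0.20 at 18 hours (SE 0.05, adjusted p = 0.187 by edgeR) and -0.06 at 6 hours (SE 0.05). Its 95% interval at 18 hours ran from -0.31 to -0.09. SPRY4 at 148, 147 and 149 CPM also had no overlap, like FOSL1 and ETV5, and all 3 genes lay below the uninduced libraries. In this comparison 16.0% of all genes had no overlap. SPRY4 differed by -0.05 (SE 0.03, adjusted p = 0.679). Of the others, DUSP6 differed by 0.03, SPRED1 by -0.08, PHLDA1 by -0.04, DUSP4 by -0.02, SPRY2 by -0.01, ETV4 by -0.0064 and SPRED2 by 0.0050. All 95% intervals of the 10 genes in SKMEL30 lay within 0.5 of 0 at both times, from -0.31 at the lowest to 0.13 at the highest.

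**Figure D4:**
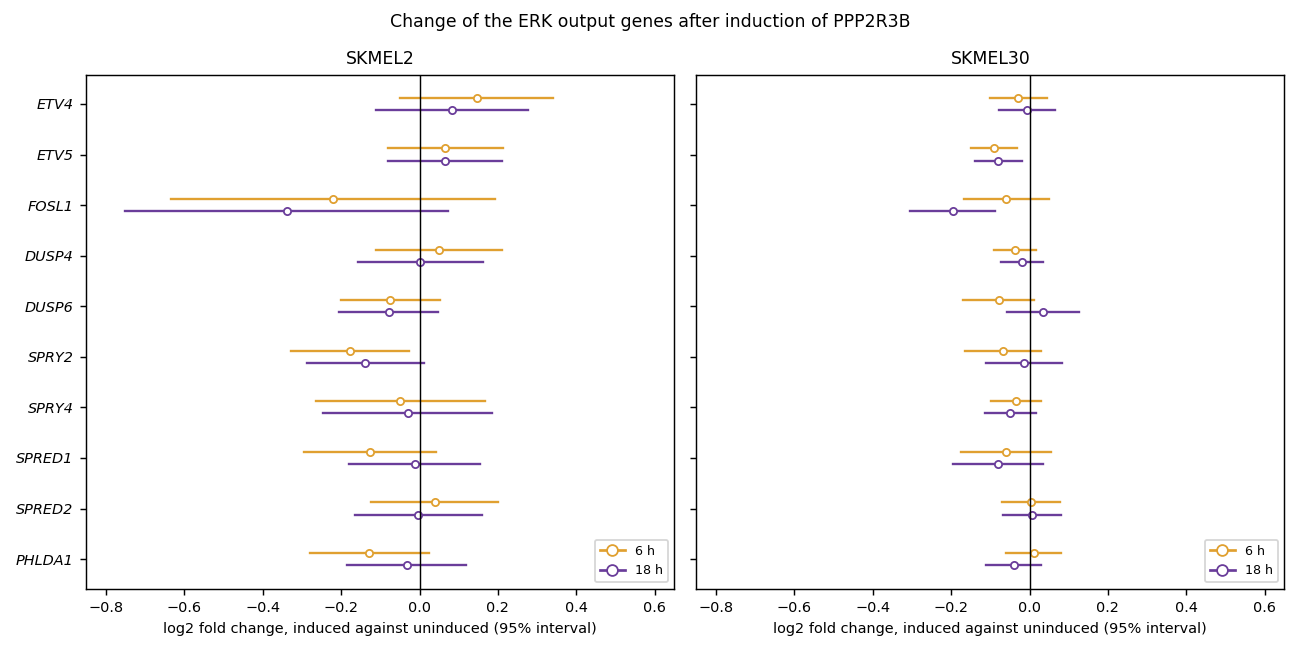
Log2 fold change of each gene, induced against uninduced (horizontal axis, with 95% intervals), at 6 and 18 hours in SKMEL2 (left) and SKMEL30 (right), with open points for an edgeR adjusted p of 0.05 or more. All points are open, and the widest intervals are those of FOSL1 in SKMEL2, down to -0.75.

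The pooled and direct comparisons of times gave the same counts. With all 6 induced libraries against the 3 uninduced ones, edgeR and DESeq2 each called 0 of the 10 genes in SKMEL2 (0.0186% of all genes by edgeR), with SPRY2 at an unadjusted p under 0.05 (-0.16, adjusted p = 0.946). They each called 0 in SKMEL30 as well (0.26%), with ETV5 (-0.08, adjusted p = 0.257) and FOSL1 (-0.13, adjusted p = 0.400) at an unadjusted p under 0.05. Over all genes, 4.42% in SKMEL2 and 8.67% in SKMEL30 had an unadjusted p under 0.05 by edgeR in the pooled comparisons. Of the 10 pooled differences 4 were positive in SKMEL2 and 1 in SKMEL30, beside 49.6% and 49.4% of all genes. Their medians were -0.05 and -0.03, against -0.00081 and -0.0011 over all genes. Averaged over the 10 genes, log2 CPM in SKMEL30 was 7.35 to 7.38 at 6 hours and 7.34 to 7.38 at 18 hours. All induced SKMEL30 libraries thus lay below the uninduced ones at 7.40 to 7.42. In SKMEL2 the mean was 7.27 to 7.35 and 7.27 to 7.33, overlapping the uninduced 7.31 to 7.39. How often the mean of 10 other genes separates in this way was not tested. Between 18 and 6 hours 0 of the 10 were called in SKMEL2 by either tool (0% of all genes), and 0 had an unadjusted p under 0.05. In SKMEL30 0 were called by either tool (0.02%), and DUSP6 (0.11, adjusted p = 0.803) and FOSL1 (-0.14, adjusted p = 0.801) had an unadjusted p under 0.05. Between these times 2.59% of all genes in SKMEL2 and 5.56% in SKMEL30 had an unadjusted p under 0.05 by edgeR.

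The difference between the lines in their response was tested as an interaction over all 18 libraries. At 6 hours 0 of the 10 genes were called by edgeR or DESeq2 (0% of all genes by edgeR), and ETV5 alone had an unadjusted p under 0.05 (-0.15, adjusted p = 0.902). At 18 hours 0 were called by either tool (0.00584% of all genes by edgeR) and 0 had an unadjusted p under 0.05. Over all genes, 4.91% at 6 hours and 5.16% at 18 hours had an unadjusted p under 0.05 by edgeR. The ETV5 interaction was again -0.15 at 18 hours (adjusted p = 0.895), and the 95% intervals of 9 of the 10 genes lay within 0.5 of 0 at both times, FOSL1 being the exception.

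Other genes of the pathway were read from lists of names. These lists were chosen with earlier results of these data known, so their counts describe the listed genes only. Of 12 paralogues of the 10 genes (among them SPRY1, SPRED3, DUSP9 and PHLDA2), 0 were called on induction in any of the 4 comparisons by edgeR, with 0 to 3 at an unadjusted p under 0.05. Of 28 genes of the cascade itself, from NRAS and BRAF to their regulators, 0 were called as well, with 0 to 2 at an unadjusted p under 0.05. DESeq2 called 0 of either list in these comparisons. Listed genes that DESeq2 gave no adjusted p count as not called, and how many there were was not counted. Of 18 other ERK target genes, 0 were called in SKMEL2 and at 6 hours in SKMEL30 by either tool, with 0 to 5 at an unadjusted p under 0.05 by edgeR. At 18 hours in SKMEL30 edgeR called 2 of the 18 and DESeq2 called 1, with LIF among the genes that it gave no adjusted p. Over all genes edgeR called 0.0124% to 0.293% in the 4 comparisons, and 3.37% to 9.14% had an unadjusted p under 0.05. Without a filter on low counts edgeR called 1 paralogue, FOSL2 (-0.30, adjusted p = 0.00202), and 2 of the other targets, KLF10 (0.18, adjusted p = 0.0391) and MYC (-0.14, adjusted p = 0.0461), in SKMEL30 at 6 hours. That fit also called many more of all genes in this comparison, and the shares above are those of the filtered fits.

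The genes called by edgeR at 18 hours were CCND1, which encodes cyclin D1, and LIF, a cytokine of the interleukin 6 family. CCND1 was at 1399, 1415 and 1421 CPM in uninduced SKMEL30 and at 1207, 1239 and 1255 CPM at 18 hours, without overlap. It fell by 0.20 on the log2 scale (SE 0.02, adjusted p = 0.000936), while its 6 hour difference was -0.02. In a fit of all 18 libraries the 18 hour value was -0.19 and missed the threshold (adjusted p = 0.252). In SKMEL2 the CCND1 difference at 18 hours was -0.14 (SE 0.06, adjusted p = 0.987). LIF was at 42.1, 44.2 and 46.8 CPM in uninduced SKMEL30 and at 55.7, 57.0 and 60.8 CPM at 18 hours, and rose by 0.38 (SE 0.06, edgeR adjusted p = 0.00459). DESeq2 called CCND1 as well (-0.19, adjusted p = 1.16e-21), but it gave LIF no adjusted p in this comparison, at the same difference of 0.38. In SKMEL2 LIF was at 13.11, 15.57 and 15.01 CPM before and at 11.4, 10.9 and 10.9 CPM after 18 hours, a difference of -0.40 that missed the threshold (adjusted p = 0.641). CCND1 and LIF, both placed among ERK targets, thus moved in opposite directions in SKMEL30.

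**Figure D5:**
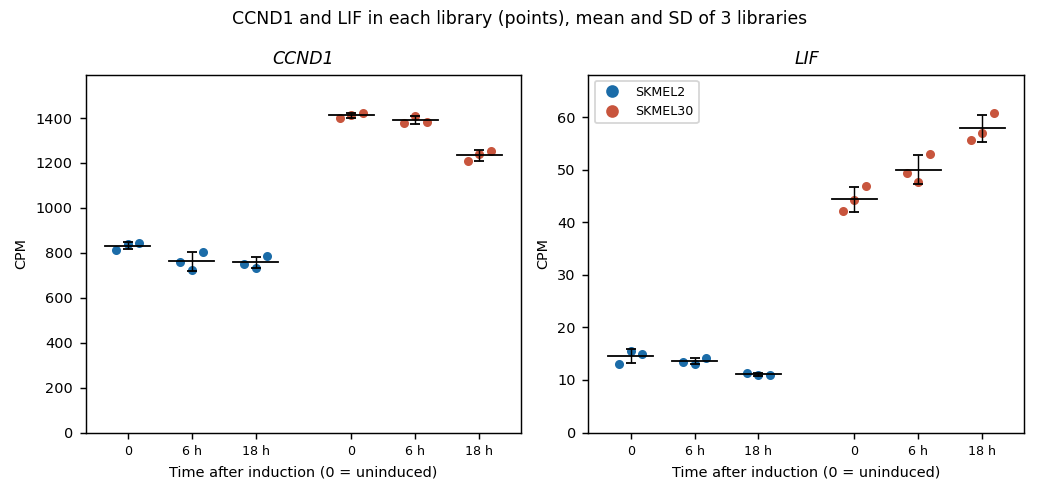
CPM (vertical axes, from 0) of CCND1 (left) and LIF (right) in each library (points), with the mean and SD of 3 libraries, by time after induction (0 for uninduced cells). In SKMEL30 at 18 hours CCND1 lies at 1207 to 1255 CPM below all uninduced libraries, and LIF lies at 55.7 to 60.8 CPM above them.

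Between the uninduced lines, 11 of the 12 paralogues were called, 4 higher and 7 lower in SKMEL30, beside 75.9% of all genes. The largest differences were those of SPRED3 (-2.07, SE 0.24), PHLDA2 (1.84, SE 0.13), SPRY1 (-1.84, SE 0.10) and DUSP9 (-1.51, SE 0.42). SPRY1, at 9.12 CPM in SKMEL30 and 32.7 CPM in SKMEL2, thus lay on the side of SPRY4, and PHLDA2 differed by more than PHLDA1. SPRED3 and DUSP9 were low throughout, at 0.81 and 0.57 CPM in SKMEL30 against 3.39 and 1.64 CPM in SKMEL2. Of the other ERK target genes 14 of 18 were called, 10 higher and 4 lower in SKMEL30. LIF (1.60, SE 0.07), DUSP2 (1.49, SE 0.22) and EGR2 (1.304, SE 0.11) were higher, and EPHA2 (-1.21, SE 0.09) was lower. Of the cascade genes 23 of 28 were called, 15 higher and 8 lower. PEBP1, which encodes a RAF inhibitor, was higher (1.25, SE 0.05), and RPS6KA2 (-1.34, SE 0.07) and ELK3 (-1.13, SE 0.05) were lower.

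The genes with the most similar profile to each member were sought over the 18 libraries among 16842 genes, as the smallest root mean square (RMS) difference of centred log2 CPM. The closest match was KIAA0319L to DUSP4, at an RMS of 0.04. The matches to ETV4 (ENO1), SPRED2 (CHD6), ETV5 (AFG3L2), PHLDA1 (RASSF3), DUSP6 (PDIA4) and SPRY2 (JPT2) were within 0.06. Those to SPRED1 (TBL1XR1) and SPRY4 (CHST11) were at 0.07, and FOSL1, the most variable gene, had the most distant match (SPINDOC, 0.13). None of the 10 genes was the closest match of another, which among 16842 genes says little about whether the 10 vary together. The libraries include both lines, so a difference between the lines counts in this measure.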

How the data were processed

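RNA of SKMEL2 and SKMEL30 melanoma cells was sequenced as 43-base paired-end reads. The values deposited by the authors are RSEM expected counts per gene from STAR alignments to the Ensembl release 86 transcriptome on GRCh38, not scaled for library size. The study's methods name Cutadapt, STAR, Samtools and RSEM 1.3.0, and the submitters' notes name other versions of Cutadapt and STAR. RSEM shares reads among genes, and 12.3% of values were not whole.

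Expected counts were rounded. In edgeR 4.0.16 (R 4.3.3) low counts were removed with filterByExpr using the groups, TMM gave the scaling, and tests were run with glmQLFit and glmQLFTest, with Benjamini-Hochberg adjustment over all genes tested. Induction was fitted within a line (9 libraries) and differences between lines over all 18. A gene was called at an adjusted p under 0.05. The SE was taken as the log2 fold change divided by the square root of F. CPM are on the TMM scale of all 18 libraries. Groups follow the labels, and 0 columns were left without a sample. Replicates within a group differed by more than counting noise (chi-square per degree of freedom 2.13 to 20.6). Transcript lengths are those of Ensembl canonical transcripts in a GRCh37 annotation, matched by gene ID. Promoters and gene positions are from RefSeq on GRCh38.p14. KRT1, a keratinocyte marker, is the 1 gene named with a count of 0 in all libraries, and no fold change rests on it.

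The 10 genes and the gene lists were chosen with earlier results of these data known. Named were all 10 genes, PPP2R3B, listed genes called on induction or in the interaction, the 4 largest differences among called genes per list between the uninduced lines, and the closest profile of each member. One gene that this rule names is not reported here. FOSL2, KLF10, MYC and IER3 fall outside it and were picked with their values in view. Alternatives were RLE factors, no filter, at least 10 counts in every library, a replicate block, DESeq2 1.42.0, a fit of the compared groups alone, induction tested in the 18-library fit and each library left out. Leaving out both libraries with a high mitochondrial share was added after seeing the data. The steps were tested on simulated data whose changes were larger than any induction difference of the 10 genes. Whether differences as small as those would be called was not tested.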

Additional observations from a re-analysis of the deposited data

Results flagged for a closer look

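LIF responded differently in the lines at 18 hours: the log2 response in SKMEL30 minus that in SKMEL2 was 0.78 (SE 0.10, edgeR adjusted p = 0.00495), with LIF higher in all 3 induced SKMEL30 libraries and lower in all 3 induced SKMEL2 libraries than in the uninduced ones. It was the 1 gene of 17133 called in that test.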

How the results depend on the processing

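Of the counts of the 10 genes called, those between the lines and in the interaction stayed within 1.5 times of their value under every alternative run, and those on induction stayed at 0 except as follows. Without a filter on low counts FOSL1 was called in SKMEL2 at 18 hours (1 gene, adjusted p = 0.0337) and in SKMEL30 at 18 hours (1 gene, adjusted p = 9.1e-05), and 1 gene was called in each pooled comparison. In these fits all genes called on induction were 158 and 168 in SKMEL2 at 6 and 18 hours and 321 and 359 in SKMEL30, in place of 2, 2, 31 and 44. All genes called in the pooled comparisons without a filter are not given here, so the pooled calls are not read as a result about the 10 genes. DESeq2 called 1 gene, FOSL1, in SKMEL30 at 18 hours, and 7, 16, 32 and 69 of all genes in the 4 comparisons. In a single fit of all 18 libraries these were 6, 7, 5 and 9. Among the listed genes called on induction, the fit without a filter added FOSL2, KLF10 and MYC in SKMEL30 at 6 hours, and DESeq2 gave LIF no adjusted p at 18 hours. Without a filter IER3, another listed ERK target, joined LIF in the interaction at 18 hours (0.34, edgeR adjusted p = 0.0297). The cause of these differences was not tested. With the replicate block 0 of the 10 genes were called on induction, and all genes called were 3, 7, 40 and 37. The FOSL1 values were -0.31 (SKMEL2) and -0.20 (SKMEL30) at 18 hours. Of the correlations of same-numbered libraries 3 of 9 in SKMEL2 and 1 of 9 in SKMEL30 were above 0.1. Libraries of different numbers were not correlated for comparison, so whether replicate numbers pair the libraries was not tested. Small uncalled differences turned sign. Without both libraries with a high mitochondrial share SPRY4 in SKMEL2 at 6 hours was 0.027, and at 18 hours DUSP4 was -0.020 and SPRED2 0.061. Without a filter SPRED2 in SKMEL30 at 6 hours was -0.00063. Leaving out each library moved the SKMEL2 6 hour values of DUSP4 from -0.042 to 0.11, SPRED2 from -0.016 to 0.10 and SPRY4 from -0.13 to 0.028. At 18 hours it moved DUSP4 from -0.018 to 0.032, PHLDA1 from -0.089 to 0.034, SPRED1 from -0.057 to 0.074, SPRED2 from -0.057 to 0.063 and SPRY4 from -0.13 to 0.046. In SKMEL30 it moved PHLDA1 from -0.0034 to 0.027 and SPRED2 from -0.018 to 0.029 at 6 hours. At 18 hours it moved DUSP6 from -0.019 to 0.067, ETV4 from -0.022 to 0.013, SPRED2 from -0.015 to 0.032 and SPRY2 from -0.033 to 0.0058. Left-out libraries moved all genes called at 18 hours in SKMEL30 from 25 to 30 and those at 6 hours from 16 to 33.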
